A study of Rattus norvegicus with 16 samples.

Results

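A set of 77 genes in the rat gustatory cortex (GC) stood lower 3 h after a drinking session than 1 h after it. This held both when the rats drank saccharin and when they drank water. The set is what remained after certain gene families and single genes had been set aside by name. The members were chosen by their measured values. A probe set qualified when the mean log2 value of its 4 arrays at 3 h lay below that of its 4 arrays at 1 h by at least 0.2 after saccharin, and by at least 0.2 after water as well. Of 15209 probe sets that the array annotation pairs with 1 gene, 114 qualified, and 37 of these were then set aside by name (among them the Fos, Jun, Egr, Nr4a, Dusp, Per and collagen families and Arc), which left 77 probe sets of 77 genes, or 0.506% of those tested. The fall itself is therefore what defined the set, and limma calls on it are given only as a description of the members, since the rule had used the same values. The comparison of saccharin with water was not itself used in the choice and was tested. At a single time it is not independent of the choice, because it shares group means with the falls, while over both times together it is uncorrelated with them by design.

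Messenger RNA was measured on 16 Affymetrix rat gene arrays, each holding the GC sample of 1 rat. The 4 groups of 4 rats were saccharin 3 h, saccharin 1 h, water 3 h and water 1 h, named by what the animal drank and by the time between the session and decapitation. Saccharin at 0.1% was the unfamiliar taste and water the familiar one. All rats were male Wistar Hola animals, given as 2 months old in the sample labels and as somewhat older in the study's methods, and all had been kept on restricted water for 3 days and trained to drink within a short session. Every group drank, so none of these arrays shows the GC of an animal that had not just had a drinking session, and the time since drinking, the time since handling and the hour of the day cannot be told apart.

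Neurons that are driven strongly switch on a first wave of genes within minutes, without the need for new protein, and the messenger RNAs of that wave are short-lived. The best-known members encode transcription factors, but the wave also holds brakes on its own signalling pathways, regulators of RNA and of small GTPases, and secreted proteins of blood vessels and of the extracellular matrix. In the cortex such genes respond to sensory input, to learning and to blood-borne or vascular signals, so a bulk sample reports on neurons, vessels and covering membranes at once. Because whole tissue was measured, fewer cells of a type and less RNA per cell cannot be told apart in any value given here.

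The DNA just before the gene start was available for 62 of the 77 genes, in RefSeq promoters of the rat build GRCr8. The cAMP response element (CRE) TGACGTCA, bound by CREB, was shown by 3 of them, Ier2, Ppp1r15a and Abcg2, at nearly the same distance from the start. The last 120 bases before the start of these 3 genes are printed for that reason, 5′ to 3′ on the strand of the gene, with each CRE or CRE core (TGACG or its complement) in capitals.
Ier2, chr19:40399253-40399372, plus strand: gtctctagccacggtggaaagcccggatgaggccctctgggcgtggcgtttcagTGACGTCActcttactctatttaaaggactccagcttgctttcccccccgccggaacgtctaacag
Ppp1r15a, chr1:105139597-105139716, minus strand: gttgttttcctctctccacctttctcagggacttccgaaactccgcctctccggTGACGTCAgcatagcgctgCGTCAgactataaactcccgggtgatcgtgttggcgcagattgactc
Abcg2, chr4:89075354-89075473, plus strand: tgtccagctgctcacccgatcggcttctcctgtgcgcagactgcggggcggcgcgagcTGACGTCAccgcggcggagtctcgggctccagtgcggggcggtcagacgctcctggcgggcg
The element began 66 bases before the start in Ier2, 66 in Ppp1r15a and 62 in Abcg2. Its distance in the promoters of other genes is not given here, so nothing is read from this likeness. In Arhgap17 the only CArG box (CC, then A or T at 6 bases, then GG) of the 62 windows began 158 bases before the start, and 60 bases around it are shown with the box in capitals.
Arhgap17, chr1:187328057-187328116, minus strand: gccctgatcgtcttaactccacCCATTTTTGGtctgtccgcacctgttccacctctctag

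Motifs were searched on both strands of windows that run from 250 bases before the start to 50 after it, and the same was done for all 27457 genes in the promoter table. The CRE was present in 4.84% of the member windows and in 2.00% of all. Its core TGACG, which the full element contains, was present in 33.9% (21 of 62), against 23.0% of all. The AP-1 site TGANTCA stood in 8.06% of the member windows, against 8.04% of all, and the CArG box in 1.61%, against 1.77%. The EGR site GCGNGGGCG, with G or T at N, stood in 8.06%, against 3.48%, and the core GCGTG read by the aryl hydrocarbon receptor in 45.2%, against 32.4%. No member window held the palindromic glucocorticoid response element, which 0.459% of all windows held. These shares describe letters in a window, and no test was made of them.

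Array medians lay between 5.08 and 5.16, and any pair of the 16 arrays correlated at 0.994 to 0.997. Markers of cortical neurons gave a mean log2 value of 10.49 to 10.57 in saccharin 3 h, 10.52 to 10.56 in saccharin 1 h, 10.50 to 10.55 in water 3 h and 10.46 to 10.54 in water 1 h, so no group stood apart in them. All 3 h arrays carry numbers from C365 to C372 and all 1 h arrays from C373 to C380, and any effect tied to the numbering cannot be told apart from time. One array stood apart from its group in genes of the first wave: over Fos, Junb, Nr4a1, Arc and Dusp1, which had been set aside by name, water 3 h array C365 lay 0.63 above the mean of its group on the log2 scale. Markers of the leptomeninges, the membranes that cover the cortex, had negative differences over time in 22 of 23 in each taste, and their values are given with the genes they accompany. Of these 23, 6 are members, and Dcn, Ogn, Igf2, Col1a1 and Col1a2 met both thresholds and were set aside by name. The count therefore rests in part on the choice itself.

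Across the 77 genes the difference 3 h minus 1 h had a median of -0.33 after saccharin (from -0.80 to -0.21) and of -0.28 after water (from -0.72 to -0.20). The medians over all 15209 probe sets were -0.0023 and 0.0023. In 4 genes the difference was -0.5 or beyond in both tastes, and in 25 it was -0.3 or beyond in both. The 4 arrays at 3 h all lay below the 4 arrays at 1 h in 38 genes after saccharin, in 28 after water, in 15 in both tastes and in neither taste in 26. Over all probe sets tested that happened in 2.69% after saccharin, in 1.93% after water and in 0.388% in both, but as the rule used these arrays nothing is read from the contrast. In limma, with the p-values adjusted over all 15209 probe sets, 12 members passed as lower at 3 h after saccharin (Csrnp1, Ier2, Rasl11a, Nab2, Gpr19, Rbm24, Kdm6b, Arhgap17, Sox8, Msx1, Frmd6 and Rnf39), where 0.276% of all did, and 3 passed after water (Csrnp1, Ier2 and Gpr19), where 0.0986% did. These counts too rest on the contrast that chose the genes. The count after water was 9 without array C373, 5 without C365, C368, C371 or C377, and 1 without C367 or C376. In the opposite direction 46 probe sets with 1 gene were higher at 3 h by at least 0.2 in both tastes.

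**Figure D1:**
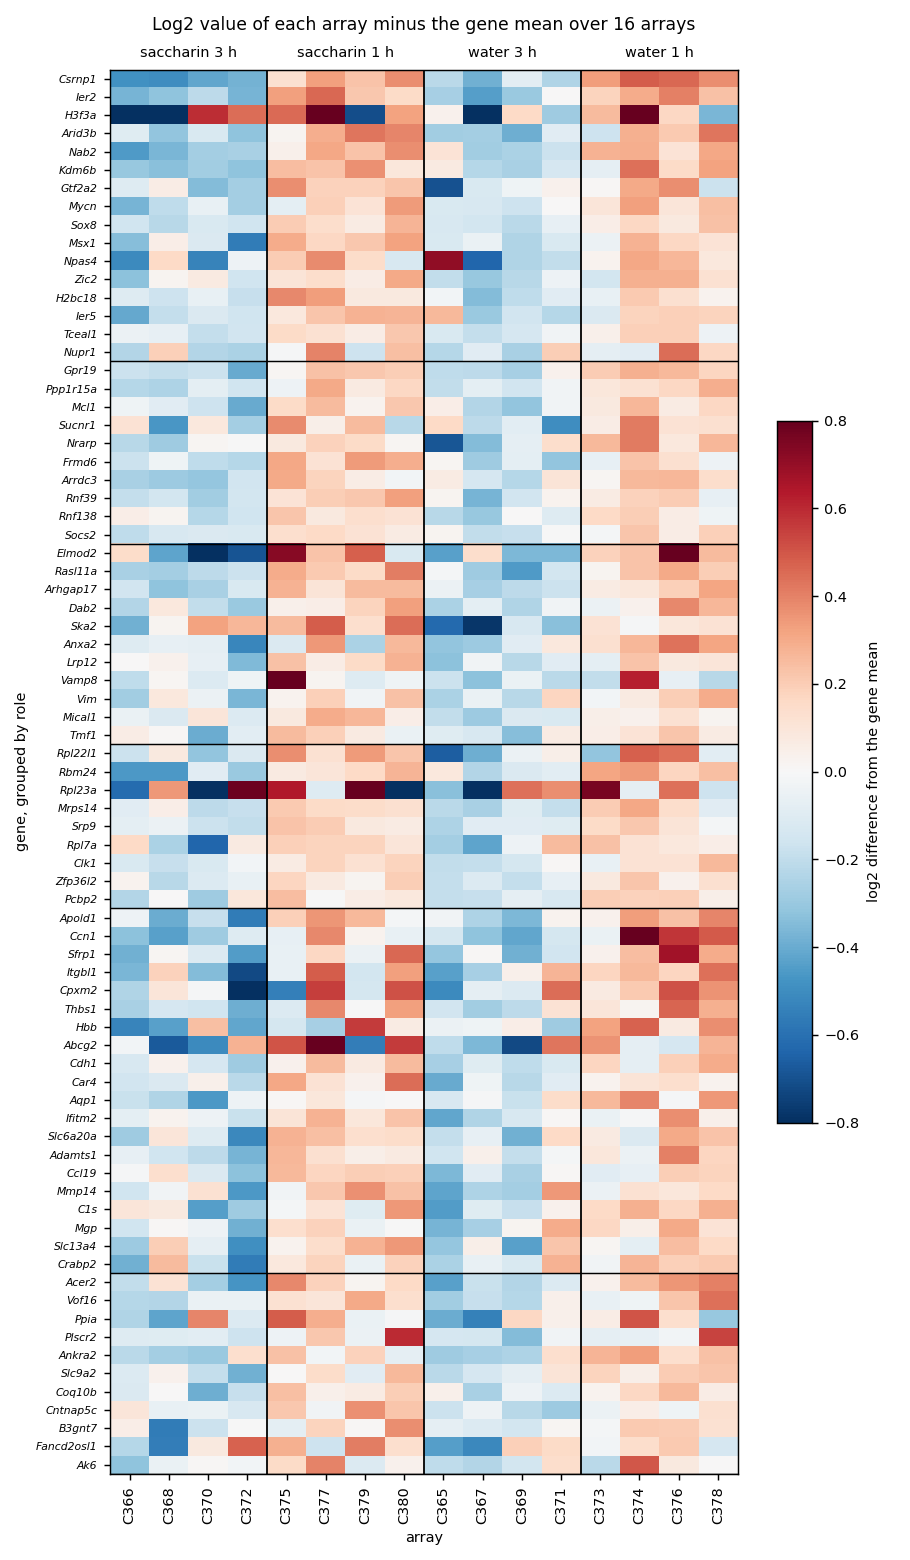
Log2 value of each of the 77 genes (rows, grouped by role from transcription and chromatin at the top to enzymes and others at the bottom) on each of the 16 arrays (columns), minus the gene's mean over all arrays; the colour scale stops at 0.8 either way. The 3 h columns are mostly blue and the 1 h columns mostly red, as the rule requires, while H3f3a, Rpl23a, Abcg2 and Vamp8 vary widely inside a group.

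Of the 77 genes, 16 act in transcription and chromatin, and as a group they had the largest median fall after saccharin of the 6 roles into which the genes were sorted, with a median difference of -0.42, and -0.31 after water. Csrnp1, a cysteine- and serine-rich nuclear protein that can activate transcription, led them. It read 4.73, 4.71, 4.79 and 4.83 in saccharin 3 h and 5.34, 5.54, 5.44 and 5.58 in saccharin 1 h. It read 4.99, 4.82, 5.12 and 4.97 in water 3 h and 5.55, 5.69, 5.67 and 5.58 in water 1 h. In both tastes the highest 3 h array lay well below the lowest 1 h array. The means were 4.77 ± 0.06 (SD, n = 4) in saccharin 3 h and 5.47 ± 0.11 in saccharin 1 h, a difference of -0.71 ± 0.07 (SE), and 4.98 ± 0.12 in water 3 h and 5.62 ± 0.07 in water 1 h, a difference of -0.65. The level at 1 h was thus 1.63 times that at 3 h after saccharin and 1.56 times after water.

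Ier2, an immediate early response protein found in the nucleus and the first of the genes whose promoter is printed above, read 4.52, 4.57, 4.69 and 4.52 in saccharin 3 h and 5.22, 5.35, 5.11 and 5.05 in saccharin 1 h. In water 3 h it read 4.63, 4.45, 4.60 and 4.90 and in water 1 h 5.07, 5.19, 5.30 and 5.13. The groups did not overlap in either taste, although the highest water 3 h array came within a short distance of the lowest at 1 h. The differences were -0.61 ± 0.08 (SE) after saccharin and -0.53 after water.

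Nab2, a corepressor that binds EGR transcription factors and holds back their activity, read 6.51, 6.60, 6.69 and 6.70 in saccharin 3 h and 7.01, 7.27, 7.19 and 7.33 in saccharin 1 h. The water arrays read 7.07, 6.69, 6.71 and 6.79 at 3 h and 7.24, 7.25, 7.07 and 7.27 at 1 h. The saccharin groups were far apart, whereas after water the high 3 h array, C365, all but met the low 1 h array. The difference was -0.58 ± 0.08 (SE) after saccharin and -0.40 after water.

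Sox8, a developmental transcription factor also known from oligodendrocytes, had a small but tight fall. It read 7.02, 6.96, 7.06 and 7.02 in saccharin 3 h and 7.39, 7.32, 7.25 and 7.45 in saccharin 1 h. After water it read 7.05, 7.04, 6.96 and 7.11 at 3 h and 7.23, 7.35, 7.26 and 7.42 at 1 h. No array of a 3 h group reached its 1 h group, and the differences were -0.34 ± 0.05 (SE) after saccharin and -0.27 after water. The 8 measured oligodendrocyte markers had median differences of 0.030 after saccharin and 0.014 after water.

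Kdm6b, which removes methyl groups from lysine 27 of histone H3, read 5.71, 5.68, 5.73 and 5.69 in saccharin 3 h and 6.26, 6.24, 6.38 and 6.11 in saccharin 1 h. In water 3 h it read 6.09, 5.78, 5.76 and 5.88 and in water 1 h 5.94, 6.46, 6.17 and 6.34. The 4 saccharin 3 h arrays were almost equal, and only after water did the times overlap, through array C365. The differences were -0.54 ± 0.09 (SE) and -0.35.

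Msx1, a homeobox repressor, was the fifth member of this role whose groups did not overlap in either taste, with differences of -0.49 after saccharin and -0.26 after water. Arid3b, which binds AT-rich DNA, differed by -0.50 and -0.45, with an overlap after water only. Ier5, another immediate early response gene, differed by -0.43 after saccharin and by -0.21 after water, where array C365 read 7.96 and lay above all 4 water 1 h arrays. Npas4, an activity-dependent factor of neurons, had differences of -0.38 and -0.26 but spread widely. It read 6.12, 6.80, 6.10 and 6.60 in saccharin 3 h and 6.84, 7.01, 6.78 and 6.51 in saccharin 1 h. The water arrays read 7.34, 6.002, 6.40 and 6.44 at 3 h and 6.66, 6.94, 6.90 and 6.72 at 1 h. Array C365 thus held the highest Npas4 value of all 16. The growth-related factor Mycn (-0.37 and -0.29), the neural factor Zic2, the histone gene H2bc18, Tceal1, the stress protein Nupr1 and Gtf2a2, a subunit of the general factor TFIIA, made up the rest together with the histone gene H3f3a. Of the 16 genes, 14 had the more negative difference after saccharin. The same count over all members depended on single arrays, and no such check is given for this role, so nothing is read from it. Among 32 measured genes of a wider list of early transcription regulators, 11 are members. The median differences of the list were -0.20 after saccharin and -0.15 after water. Of its genes 27 were negative in each taste, and 7 and 2 passed in limma as lower at 3 h. The members entered by their falls, and the list was chosen with earlier results known. Its medians and counts therefore rest in part on the choice. The one that passed and is no member was Zfp189, at -0.49 after saccharin (limma adjusted p = 0.0014) and -0.19 after water.

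**Figure D2:**
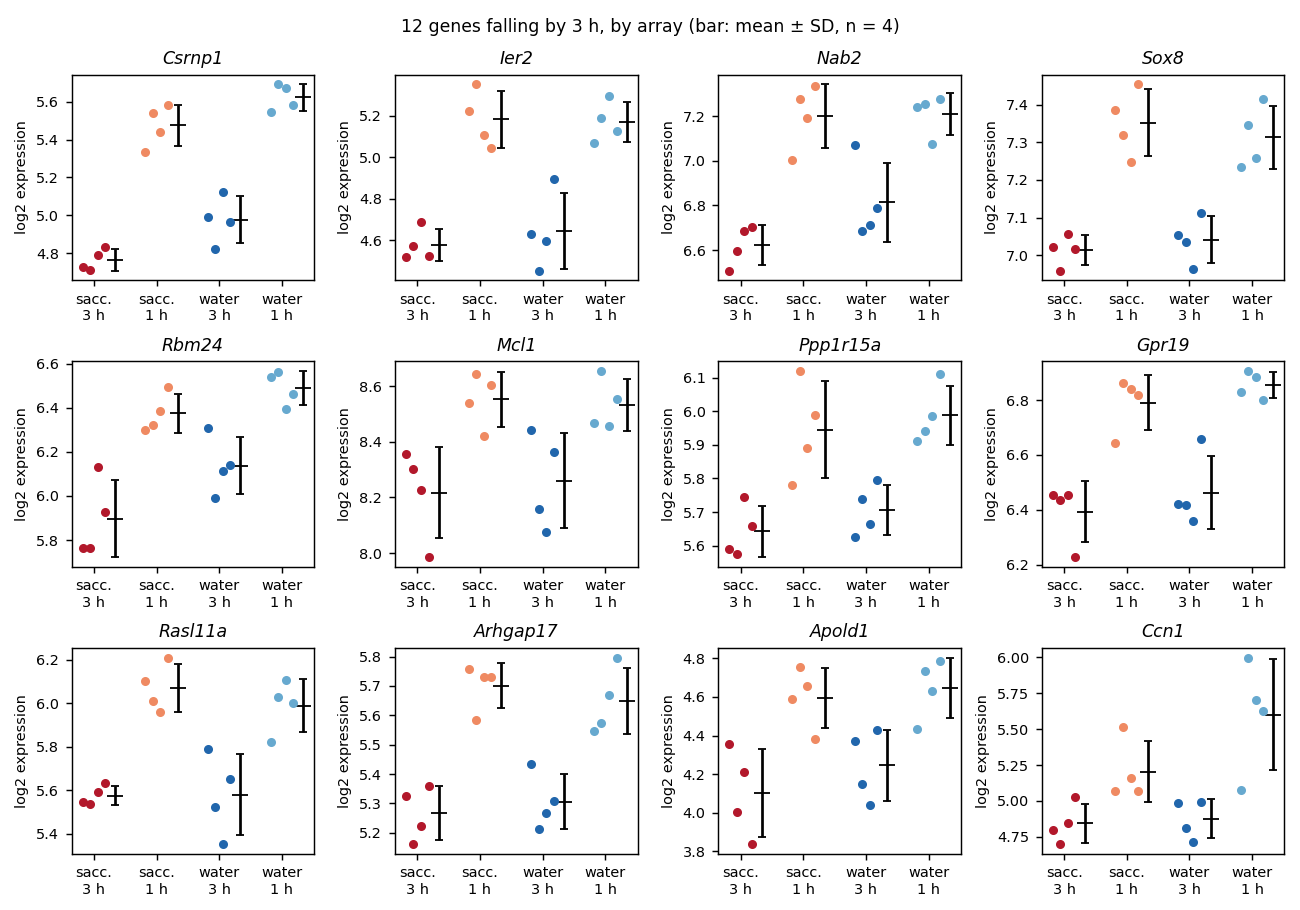
Log2 expression of 12 of the 77 genes on each array (points) in saccharin 3 h, saccharin 1 h, water 3 h and water 1 h, with the mean and SD of the 4 arrays beside the points; each panel has its own axis, which does not start at 0. In all 12 the 4 arrays at 3 h lie below the 4 at 1 h in both tastes, with Csrnp1 at 4.71 to 4.83 in saccharin 3 h and 5.34 to 5.58 in saccharin 1 h.

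Signalling and cell survival are served by 10 members. Gpr19, an orphan receptor of the G protein-coupled family that is found in brain, read 6.45, 6.44, 6.45 and 6.23 in saccharin 3 h and 6.64, 6.86, 6.84 and 6.82 in saccharin 1 h. After water it read 6.42, 6.42, 6.36 and 6.66 at 3 h and 6.83, 6.91, 6.88 and 6.80 at 1 h. The times did not overlap, and the fall was nearly the same size in both tastes, -0.40 ± 0.07 (SE) after saccharin and -0.39 after water. The 10 orphan receptors of its class that were measured, itself included, had median differences of 0.0026 and 0.0059.

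Ppp1r15a (also called GADD34), which guides protein phosphatase 1 to the translation factor eIF2 alpha and so restores protein synthesis after stress, read 5.59, 5.57, 5.74 and 5.66 in saccharin 3 h and 5.78, 6.12, 5.89 and 5.99 in saccharin 1 h. In water 3 h it read 5.63, 5.74, 5.66 and 5.79 and in water 1 h 5.91, 5.94, 5.99 and 6.11. The times stayed apart by a narrow gap in each taste, with differences of -0.30 ± 0.07 (SE) and -0.28. Mcl1, which protects cells from apoptosis, read 8.35, 8.30, 8.23 and 7.98 in saccharin 3 h and 8.54, 8.64, 8.42 and 8.60 in saccharin 1 h. The water arrays read 8.44, 8.16, 8.08 and 8.36 at 3 h and 8.47, 8.66, 8.46 and 8.55 at 1 h. The water 3 h array C365 again came closest to the 1 h group. The differences were -0.34 and -0.27 for this probe set, but -0.040 and 0.031 for a second Mcl1 probe set on the array, so the gene as a whole stays uncertain.

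Of the rest of this role, Arrdc3, an arrestin-like protein that takes part in the internalization of receptors, differed by -0.38 after saccharin and -0.22 after water, and Rnf39, a RING finger protein first described in rat hippocampus after potentiation, by -0.40 and -0.22. Frmd6, a FERM domain protein upstream of the Hippo pathway, differed by -0.43 and -0.23, and its second probe set gave -0.33 and -0.083. Socs2, which damps growth hormone and cytokine signalling, differed by -0.26 and -0.20. Arrdc3, Rnf39, Frmd6 and Socs2 had no overlap between times after saccharin and overlapped after water. The succinate receptor Sucnr1, dim with a mean of 3.35, differed by -0.25 and -0.34 with overlaps in both tastes, and the ubiquitin ligase Rnf138 by -0.21 and -0.25 with an overlap after water only. Nrarp, a target and inhibitor of Notch, showed the opposite order, with -0.23 after saccharin and -0.50 after water, but its water 3 h arrays ranged widely (6.18, 6.52, 6.80 and 7.005, against 7.13, 7.28, 6.95 and 7.14 at 1 h). Of 17 measured genes of the Notch pathway it was the only member, none passed in limma over time, and their median differences were -0.068 and -0.018. Of 27 measured feedback and stability brakes 6 are members. The median differences of the list were -0.12 and -0.052 and rest in part on the choice. In limma 3 of the 27 passed as lower at 3 h after saccharin and 0 after water. They were the member Rnf39 and, not members, Stk40 and Slc25a25. Stk40 differed by -0.43 after saccharin (limma adjusted p = 0.00044) and -0.17 after water, and Slc25a25 by -0.37 (limma adjusted p = 0.046) and -0.12.

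Small GTPases, the cytoskeleton and membrane traffic account for 11 members. Rasl11a, a Ras-like protein of the nucleolus, read 5.54, 5.53, 5.59 and 5.63 in saccharin 3 h and 6.10, 6.01, 5.96 and 6.21 in saccharin 1 h. After water it read 5.79, 5.52, 5.35 and 5.65 at 3 h and 5.82, 6.03, 6.11 and 6.002 at 1 h. The saccharin groups were tight and distant, while the water groups nearly touched, again through array C365. The differences were -0.49 ± 0.08 (SE) and -0.41. Arhgap17, a GTPase-activating protein, read 5.32, 5.16, 5.22 and 5.36 in saccharin 3 h and 5.76, 5.59, 5.73 and 5.73 in saccharin 1 h. In water 3 h it read 5.44, 5.21, 5.27 and 5.31 and in water 1 h 5.55, 5.57, 5.67 and 5.80. The times did not overlap, with differences of -0.43 ± 0.07 (SE) and -0.34.

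Other members of this role moved less evenly. Ska2, a protein of the spindle and kinetochore, differed by -0.27 after saccharin and -0.54 after water, and its second probe set by -0.026 and -0.20. A dim Elmod2 probe set with a mean of 3.76 had differences of -0.80, the largest of all 77 after saccharin, and -0.66 after water, and a second probe set of this GTPase-activating protein gave -0.031 and 0.044. Vamp8, a vesicle fusion protein, owed its place to a single array at 1 h in each taste, 6.73 in saccharin 1 h and 6.28 in water 1 h, while the other arrays of those groups lay between 5.44 and 5.68. The intermediate filament protein Vim, the membrane-binding Anxa2 and the endocytic adaptor Dab2 had differences of -0.22 to -0.44. Of 14 measured genes of a wider list of GTPases and cytoskeletal adaptors, which also held the RNA-binding Rbm24, 4 are members. They are Rasl11a, Arhgap17, Rbm24 and Frmd6, the last through another probe set than the one measured for the list. The 3 that passed in limma after saccharin, Rasl11a, Arhgap17 and Rbm24, are all members, and 0 passed after water. The median differences of the list were -0.18 and -0.11, and like its calls they rest in part on the choice of the members.

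RNA and translation account for 9 members. Rbm24, an RNA-binding regulator of splicing and of messenger stability, read 5.76, 5.76, 6.13 and 5.93 in saccharin 3 h and 6.30, 6.32, 6.39 and 6.49 in saccharin 1 h. The water arrays read 6.31, 5.99, 6.11 and 6.14 at 3 h and 6.54, 6.56, 6.39 and 6.46 at 1 h. The times did not overlap, and both groups after saccharin lay below those after water in their means. The differences were -0.48 ± 0.08 (SE) and -0.35. Mrps14, a protein of the mitochondrial ribosome, differed by -0.27 and -0.33, and Srp9, a subunit of the signal recognition particle, by -0.27 and -0.25, both without overlap in either taste. Zfp36l2, which speeds the decay of messengers with AU-rich elements, differed by -0.21 and -0.25, and Clk1, a kinase of splicing factors, by -0.25 and -0.24.

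Rpl22l1, a paralog of the ribosomal protein gene Rpl22, differed by -0.39 and -0.40, with an overlap after water only. The other members of this role, Rpl7a, Rpl23a and Pcbp2, are uncertain, because the array holds several probe sets for each. Only 1 of 10 probe sets of Rpl7a, 1 of 6 of Rpl23a and 1 of 4 of Pcbp2 qualified. The qualifying Rpl23a probe set spread from 4.49 to 7.01 within saccharin 3 h alone. The same holds for the histone gene H3f3a, where 1 of 4 probe sets qualified with differences of -0.52 and -0.60, and the other 3 gave -0.015 to -0.15 after saccharin and -0.12 to -0.20 after water. It holds for Ppia, where the 3 other probe sets lay between -0.018 and 0.057 after saccharin and between -0.15 and 0.13 after water, and for Gtf2a2 and Ankra2. In all, 13 member genes had more than 1 probe set.

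Blood vessels, the extracellular matrix and the meninges account for 20 members, the largest of the roles. Apold1, an endothelial protein that is itself an early response gene, read 4.36, 4.002, 4.21 and 3.84 in saccharin 3 h and 4.59, 4.75, 4.66 and 4.38 in saccharin 1 h. After water it read 4.37, 4.15, 4.04 and 4.43 at 3 h and 4.43, 4.73, 4.63 and 4.79 at 1 h. The times came close but did not overlap in either taste, and the differences were -0.49 ± 0.11 (SE) and -0.40. Ccn1 (Cyr61), a matricellular protein released by many cells on stimulation, read 4.80, 4.70, 4.84 and 5.03 in saccharin 3 h and 5.07, 5.52, 5.16 and 5.07 in saccharin 1 h. In water 3 h it read 4.99, 4.81, 4.72 and 4.99 and in water 1 h 5.08, 5.996, 5.70 and 5.62. Its difference was -0.36 ± 0.14 (SE) after saccharin and -0.72 after water, the largest fall after water of all 77, and it rested on 3 high arrays at 1 h.

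Thbs1, an inhibitor of vessel growth in the matrix, differed by -0.39 and -0.35, and Adamts1, a matrix protease, by -0.33 and -0.24. Sfrp1, a secreted inhibitor of Wnt, differed by -0.36 and -0.52, while the 13 measured Wnt inhibitors had median differences of -0.0073 and -0.035. Abcg2, the drug exporter of the blood-brain barrier whose promoter is printed above, had differences of -0.57 and -0.32 with a wide spread, from 4.86 to 5.81 in saccharin 3 h, 4.99 to 6.39 in saccharin 1 h, 4.81 to 5.96 in water 3 h and 5.40 to 5.89 in water 1 h. Hbb, a beta globin whose near-identical copies the array cannot be assumed to separate, differed by -0.34 and -0.39, beside median differences of -0.18 and -0.28 in the 4 red blood cell markers that were measured. The other members of the role are known from meninges, vessel walls and matrix, among them Slc13a4, Slc6a20a, Crabp2, Mgp, Itgbl1, Mmp14, Cpxm2, Cdh1 and the water channel Aqp1. The median differences of all 20 were -0.34 after saccharin and -0.30 after water, and 0 passed in limma in either taste. A wider list of vascular and matricellular early genes also held Acer2, sorted here under enzymes and others, and the cytokine receptor gene Flt3. Of its 21 measured genes 5 are members, Acer2 included. The median differences of the list were -0.16 and -0.15 and rest in part on the choice. The 1 that passed in limma was Flt3, no member, after saccharin (-0.33, limma adjusted p = 0.0077), with -0.19 after water. The 7 measured genes of the aryl hydrocarbon receptor pathway hold no member and had median differences of -0.032 in each taste.

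The marker lists of other cells were set beside these genes. Of the 23 measured markers of leptomeninges and fibroblasts 6 are members (Slc13a4, Mgp, Itgbl1, Crabp2, Mmp14 and Nupr1). Dcn, Ogn, Igf2, Col1a1 and Col1a2 met the thresholds too and were set aside by name, so the medians of the list rest in part on the choice. The list had median differences of -0.33 after saccharin and -0.20 after water, none of its genes passed in limma, and its mean level ran from 5.61 to 6.22 in saccharin 3 h and 6.06 to 6.35 in saccharin 1 h, and from 5.82 to 6.25 in water 3 h and 6.07 to 6.36 in water 1 h. The times overlapped in both tastes. Lum and Slc22a2 were its dimmest markers, with means of 3.56 and 3.88. Endothelial markers (14 measured, 0 members) had median differences of -0.010 and 0.027, with 7 of 14 negative after saccharin and 6 after water, and mural cell markers had -0.051 and -0.032. Microglia (0.034 and -0.023) and astrocytes (0.0055 and -0.0030) had medians near 0. Of the choroid plexus list 1 of 12 is a member, Aqp1, with list medians of -0.0032 and -0.057. Of the 10 striatal markers, 2 passed in limma in both tastes, Pde10a as higher at 3 h (0.48 and 0.50) and Chrm4 as lower (-0.45 and -0.37). The part that tissue composition has in the members' differences was not tested.

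The 11 enzymes and others had median differences of -0.27 after saccharin and -0.24 after water, and none was without overlap in both tastes. Acer2 led them with -0.39 and -0.50. It read 5.08, 5.39, 4.999 and 4.80 in saccharin 3 h and 5.66, 5.45, 5.29 and 5.43 in saccharin 1 h. After water it read 4.84, 5.09, 5.03 and 5.16 at 3 h and 5.30, 5.52, 5.62 and 5.67 at 1 h, so its times overlapped after saccharin only. Coq10b, which helps coenzyme Q function in mitochondria, differed by -0.31 and -0.22. Over the same interval the 9 measured reference genes had median differences of -0.027 after saccharin and 0.0033 after water, and none passed in limma. Gapdh gave 0.03 and 0.0032 and Actb -0.03 and 0.02, but Hprt1 gave -0.15 and -0.22 and Rplp0 0.18 and 0.07, so that Hprt1 lay beyond -0.2 after water.

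**Figure D3:**
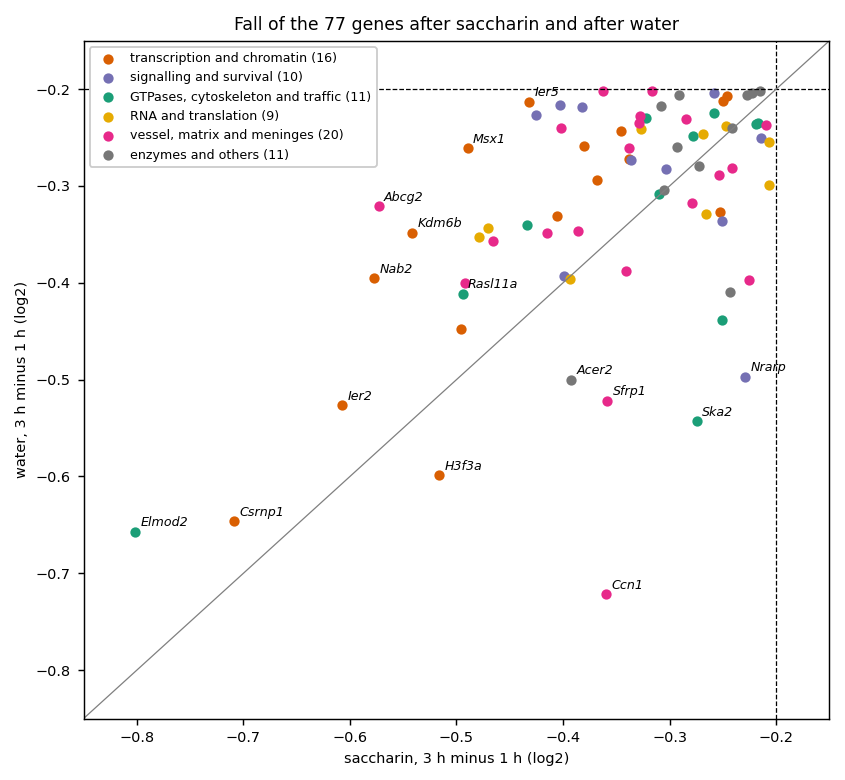
Difference 3 h minus 1 h in log2 after saccharin (horizontal axis) and after water (vertical axis) for each of the 77 genes, coloured by role, with the thresholds of -0.2 dashed and the line of equal differences in grey. Points left of the grey line, 53 of 77, had the more negative difference after saccharin; Csrnp1, Ier2 and Elmod2 lie farthest along the line, and Ccn1, Ska2 and Nrarp far below it.

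The difference was more negative after saccharin in 53 of the 77 genes and after water in 24. The median of the saccharin difference minus the water difference was -0.039, against -0.0061 over all probe sets. This count depended on single arrays: without water 3 h array C371, whose mean over the members was the highest of its group, it was 34 of 77. No such check is given for the counts by role that follow. The widest gaps toward saccharin were those of Abcg2 (-0.25 ± 0.39, SE), Msx1 (-0.23 ± 0.14) and Ier5 (-0.22 ± 0.15), and the widest toward water those of Ccn1 (0.36 ± 0.20), Nrarp (0.27 ± 0.18) and Ska2 (0.27 ± 0.20). For none of the 77 did the interaction of time and taste in limma give an unadjusted p under 0.05. The rule had asked for a fall in both tastes, which keeps out genes with strongly unlike falls, so nothing is read from this. By role, saccharin had the more negative difference in 14 of 16 genes of transcription and chromatin, 7 of 10 of signalling and survival, 7 of 11 of GTPases, cytoskeleton and traffic, 5 of 9 of RNA and translation, 12 of 20 of vessel, matrix and meninges and 8 of 11 of enzymes and others.

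At the threshold the choice was close. Just inside were Slc13a4, a sulfate transporter (-0.36 after saccharin and -0.20 after water), Crabp2, which carries retinoic acid (-0.32 and -0.20), and Ak6, an adenylate kinase (-0.22 and -0.20). Just outside were Cd74 (-0.20 and -0.33), Shroom2 (-0.19 and -0.19) and S100a11 (-0.19 and -0.23). The members' mean level was at least 5 in 65 genes and under 5 in 12.

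Whether the unfamiliar taste differed from the familiar one in these genes was asked at each time and over both. The choice had not used these contrasts themselves. Those at 3 h and at 1 h share group means with the falls and so are not independent of the choice, and only the contrast over both times is uncorrelated with the falls by design. No member passed in limma at 3 h, and the same was true of all probe sets tested (0%). Before adjustment, 2 members had a positive and 4 a negative difference of saccharin minus water with p under 0.05 at 3 h, beside 3.37% of all probe sets in either direction. The members' differences at 3 h ran from -0.26 to 0.52 with a median of -0.020. At 1 h again none passed, as over all (0%), and an unadjusted p under 0.05 was reached by 2 members with a positive and 3 with a negative difference, beside 3.06% of all. Their median was 0.0089. Over both times none passed, as over all (0%), and an unadjusted p under 0.05 was reached by 3 positive and 4 negative differences, beside 3.39% of all. The median was -0.0096.

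Csrnp1 had the smallest unadjusted p over both times. The difference at 3 h was -0.21 ± 0.07 (SE), and the 4 saccharin arrays (4.71 to 4.83) barely met the lowest of the water arrays (4.82 to 5.12). At 1 h the groups overlapped more (5.34 to 5.58 after saccharin and 5.55 to 5.69 after water), with a difference of -0.15. Over both times the difference was -0.18 ± 0.05 (limma adjusted p = 1.00), which did not pass. Ska2 had a difference of 0.52 ± 0.14 at 3 h (SE; limma adjusted p = 0.999), with values of 6.13, 6.53, 6.83 and 6.78 in saccharin 3 h and 5.89, 5.73, 6.39 and 6.18 in water 3 h. The lowest saccharin array lay below 2 of the water arrays. Rbm24 had a difference of -0.24 at 3 h, and Ccn1 one of -0.40 at 1 h, where saccharin 1 h arrays read 5.07 to 5.52 and water 1 h arrays 5.08 to 5.996. Frmd6 (0.20) and Aqp1 (-0.22) followed at 1 h. None of these passed the adjusted threshold, and a p that misses it does not show that the tastes act alike.

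Among rats of 1 group, where neither taste nor time differs, the members still varied. Each array's value was taken as its deviation from the group mean, and each gene was set against the mean deviation of 2 reference sets that hold no member: the 5 early genes named above and 17 meningeal markers. The 5 early genes, and Dcn, Ogn, Igf2, Col1a1 and Col1a2 among the markers, had met the thresholds and are no members only because they were set aside by name. Over the 16 arrays the 2 sets correlated with each other at Pearson's r = -0.057 (Spearman's rho = 0.035), which became 0.30 (rho = 0.29) without array C365. All points share the arrays and the 4 group means, and the correlations are given as a description. Pearson's r with the early genes was over 0.5 in 12 of the 77 members (15.6%, against 3.41% of all probe sets), and with the meningeal markers in 23 (29.9%, against 6.03%).

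Over all 16 arrays the early genes were followed most closely by Socs2 (r = 0.85), Ier5 (0.79), Npas4 (0.78), Rasl11a (0.71), Nab2 (0.68), Kdm6b (0.68), Arrdc3 (0.62) and H2bc18 (0.61). The r of these 8 with the meningeal markers lay between -0.20 and 0.07. The order depended on array C365. Without it Socs2 (0.86) still came first, followed by Ak6 (0.81), Ier2 (0.76), Zic2 (0.73), Nrarp (0.66) and Ccn1 (0.66), while Npas4 had 0.50, Nab2 0.37, Ier5 0.53 and Rasl11a 0.53. The mean deviation of the 16 genes of transcription and chromatin followed the early genes at r = 0.74 (rho = 0.84), at r = 0.81 without array C365, and at r = 0.88 without arrays C365 and C369, which lay farthest out in the early genes. Gene by gene the role was mixed: 5 of the 16 had an r over 0.5 with the early genes, with a median of 0.37, and 3 had it with the meningeal markers (Nupr1, Msx1 and Zic2). The meningeal markers were followed most closely by Vim (0.92), Cpxm2 (0.91), Slc13a4 (0.88), Dab2 (0.85), Crabp2 (0.84) and Sfrp1 (0.83). Of the 20 genes of vessel, matrix and meninges 13 had an r over 0.5 with the markers, and the mean deviation of the 20 followed them at r = 0.91 (rho = 0.92), and at r = 0.90 without arrays C368 and C372. With the early genes the same 20 gave r = 0.041, which became 0.51 without array C365 alone.

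**Figure D4:**
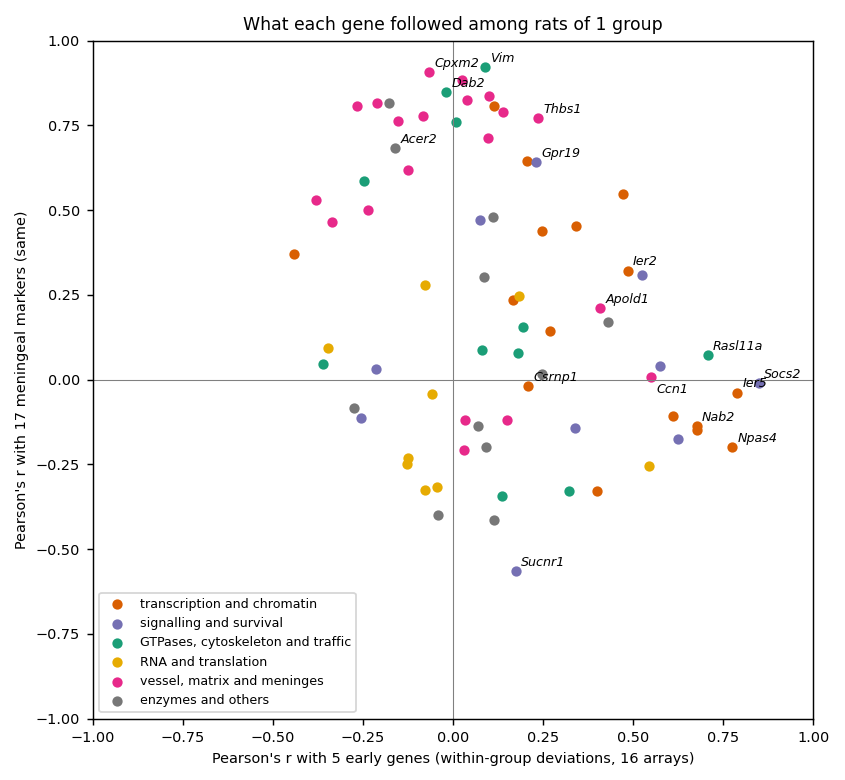
Pearson's r of each of the 77 genes with the mean of 5 early genes (horizontal axis) and of 17 meningeal markers (vertical axis), from deviations of the 16 arrays from their group means, coloured by role. Some genes of transcription and signalling, such as Socs2, Ier5 and Npas4, lie to the right near a vertical value of 0. Some genes of vessel, matrix and meninges, such as Cpxm2, lie at the top near a horizontal value of 0.

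Within the vessel role the members divided. Ccn1 had r = 0.55 with the early genes and 0.01 with the meningeal markers, and Apold1 had 0.41 and 0.21. Without array C365 Ccn1 had 0.66 and 0.06, and Apold1 had 0.37 and 0.31, closer to each other. Thbs1 (0.24 and 0.77) and Sfrp1 (0.04 and 0.83) lay on the meningeal side, and Abcg2, Aqp1 and Hbb had values between -0.21 and 0.15 with either set. Outside the role, Gpr19 had 0.23 with the early genes and 0.64 with the meningeal markers, Acer2, a ceramidase, had -0.16 and 0.68, and the sodium exchanger gene Slc9a2 had -0.18 and 0.82. Without array C365 Gpr19 had 0.50 and 0.64, Acer2 0.17 and 0.64, and Slc9a2 0.09 and 0.79. Csrnp1 had 0.21 and -0.02, and its r with the early genes was 0.25 without array C365 and 0.60 without arrays C365 and C369. The members closest to it within groups were Ska2 (r = 0.62), H3f3a (0.60) and Rnf39 (0.56), of which the first 2 have a single qualifying probe set among several. Whether tissue composition or a rat's own state sets these deviations was not tested.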

How the data were processed

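GC messenger RNA was measured on 16 arrays, 1 rat each, in 4 groups of 4 taken from the sample titles. The authors read the arrays with the package affy (version not given in the sources used here), applied quantile normalisation over all chips and then RMA, so that the values they deposited are log2 levels, 1 per probe set. They were used as deposited. Quantile normalisation gives all arrays one distribution, so a shift of most genes at once could not be seen.

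The annotation of the array gives 1 gene for 15209 of the 28826 probe sets, which were tested, several genes for 306 and no entry for 13311. Among these 13617 others, 106 met the thresholds too and are not analysed here. All 4 group means were fitted in limma 3.58.1 (R 4.3.3) with 1 estimate of spread, and Benjamini-Hochberg adjusted p-values under 0.05 were called. All tests were two-sided. Differences are 3 h minus 1 h, or saccharin minus water. Standard errors come from that fit. Members and gene lists were chosen with earlier results of these data known, and roles were assigned after the members were known. Named genes are Csrnp1, the 12 members with the largest smaller fall among those without overlap in both tastes, up to 4 members of each list, neighbours of the threshold, the smallest p-values by taste, the widest gaps between tastes, other probe sets of these genes and the members most like Csrnp1. Further members were named after their values were seen. On simulated data for saccharin against water at 3 h the fit found 97 of 100 altered probe sets at a log2 change of 0.5. It found 100 of 100 at a change of 1 and made 11 false calls, with 15209 probe sets in all. How often the fit would find a change of 0.5 on the real arrays was not tested. On those arrays Ska2, with a difference of 0.52 at 3 h, did not pass (limma adjusted p = 0.999). The number of arrays limits the precision. Alternatives covered the probe sets tested, a filter on dim ones, centring, the prior, array weights, the arrays fitted, group medians, the threshold and leaving out each array. Correlations without the farthest arrays were added after seeing the data. Promoters came from RefSeq (GRCr8), matched by symbol or gene ID.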

Additional observations from a re-analysis of the deposited data

Results flagged for a closer look

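Of 116 groups of 4 arrays checked in 29 genes, 4 held an array far from the rest of its group, and chance alone gives about 1 group in 20. Nab2 read 7.07 on water 1 h array C376, while the other 3 arrays of the group lay at 7.24 to 7.27. Gpr19 read 6.23 on saccharin 3 h array C372, below the 6.44 to 6.45 of the others. Arhgap17 read 5.59 on saccharin 1 h array C377, below 5.73 to 5.76. Ier5 read 7.59 on water 1 h array C373, below 7.88 to 7.90. These arrays are 4 different ones, and in each case the far array was the low one.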

How the results depend on the processing

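The number of members was 77 as reported, 25 with a threshold of 0.3 and 15 when no overlap in both tastes was also required. Leaving out 1 array at a time it ran from 63 (without C376) to 91 (without C379), sharing 57 to 76 genes with the 77, and 28 genes, Csrnp1 among them, stood in every such list. After saccharin 12 members passed as lower at 3 h, 19 with a trended and robust prior, and 9 to 14 without 1 array. After water 3 passed, 6 with probe sets of mean log2 of at least 5, 1 with only the 8 arrays of the comparison, 6 with a trended and robust prior, and from 1 (without C376 or C367) to 9 (without C373) when 1 array was left out; without C365, C371, C368 or C377 it was 5. The count of genes with the more negative difference after saccharin was 53, and 34 to 58 without 1 array, lowest without C371. The cause of these changes was not tested. No member passed between the tastes under any alternative run, and the fit on 8 arrays was not run for both times together. Of 522 values of 29 named genes under alternatives none moved beyond the spread of its groups or changed sign. No paired analysis was possible because no array number is shared between groups. A mean log2 value under 5, below the median of every array, was found in 12 of the 77 genes, where a difference is measured on little signal.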
